A study of Flaveria bidentis and Flaveria robusta with 100 samples.

Results

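Leaves of the C4 plant Flaveria bidentis were sampled at 4 h and 8 h after subjective lights on (zeitgeber times ZT04 and ZT08) on a day that had not been preceded by darkness. These are day 2 of constant light (LL2), when the leaves had been lit for 28 h and 32 h without a break. They were compared with the same clock hours on the 3 days that did follow a dark night: both days of the light and dark regime (LD1 and LD2) and day 1 of constant light (LL1), when the leaves had been lit for 4 h and 8 h. The members were chosen by these time-point names, which gives 4 of the 100 libraries of the series, or 2 of its 50 time points, against 12 libraries from 6 time points. Plants spent 36 days in a greenhouse, then 6 days in a chamber at 22 °C during 10 h light periods and 20 °C during 14 h nights, and mature leaves were taken with 2 biological replicates per time point. The C3 relative F. robusta was sampled on the same schedule. The labels name no genotype or agent beyond species and light regime.

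In plants, dawn resets a circadian clock in which morning MYB factors (CCA1, LHY) repress evening genes and a series of pseudo-response regulators (PRR9, PRR7, PRR5, TOC1) represses the morning genes in turn. A normal night also lets the leaf spend the starch stored by day, and genes for asparagine synthesis and proline breakdown are known to be switched on in darkness or sugar shortage. In a C4 leaf, CO2 is first fixed into C4 acids in mesophyll cells and released around Rubisco in bundle sheath cells.

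The values are the authors' mean RPM (reads scaled to a fixed library total) of each time point, read as log2(mean RPM + 1), and reads are listed under Arabidopsis genes. Replicate values were not used, so the errors below measure the scatter of the 8 time-point means around a model with hour and skipped night. Every change is on this log2 scale and understates the change of genes near 1 RPM. LL2 came after the reference days, so the skipped night cannot be told apart from plant age, sampling day or hours of unbroken light. Leaf identity held in all 8 means: the Rubisco small subunit gene RBCS1A lay between 7755 and 11845.5 RPM, and the C4 enzyme gene PPDK between 23476.5 and 40328 RPM. Among the reference means, the LD1 mean at ZT04 stood somewhat apart (Spearman correlation across genes of 0.97 with LD2 and 0.975 with LL1 at the same hour, against 0.994 between those). Without it, among other list counts, flavonoids had 13 higher, photorespiration 7, sucrose synthesis 4, starch breakdown 3 and cyclic electron flow 2, chlorophyll synthesis and clock output had 4 lower each, and starch synthesis had 0 lower. The calls of DRM1, GBSS1, GAPB and AT5G02750 were lost.

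After the skipped night 498 of 13294 tested genes were higher (3.75%) and 344 were lower (2.59%), 842 in all (6.33%), at an adjusted p under 0.05 in limma. Scaling by TMM factors (a trimmed mean of ratios, which sets the bulk of genes level) gave 790 calls (5.94%), of which 384 were higher (2.89%) and 406 lower (3.05%), so the balance of directions depends on the scaling. The changes were at least 2-fold in 128 of the higher and 117 of the lower genes. The reference set matters: 169 genes passed against the LD days alone, 33 passed when a linear trend over the 4 days was added, and none passed against LL1 alone, a fit with few means that reached an unadjusted p under 0.05 for 985 genes. Leaving out single means moved the total between 395 (without LL1 ZT08) and 1356 (without LL2 ZT04). It was 455 without LD1 ZT08, 513 without LD2 ZT08 and 710 without LL2 ZT08, and it was 1078 without LD1 ZT04.

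**Figure D1:**
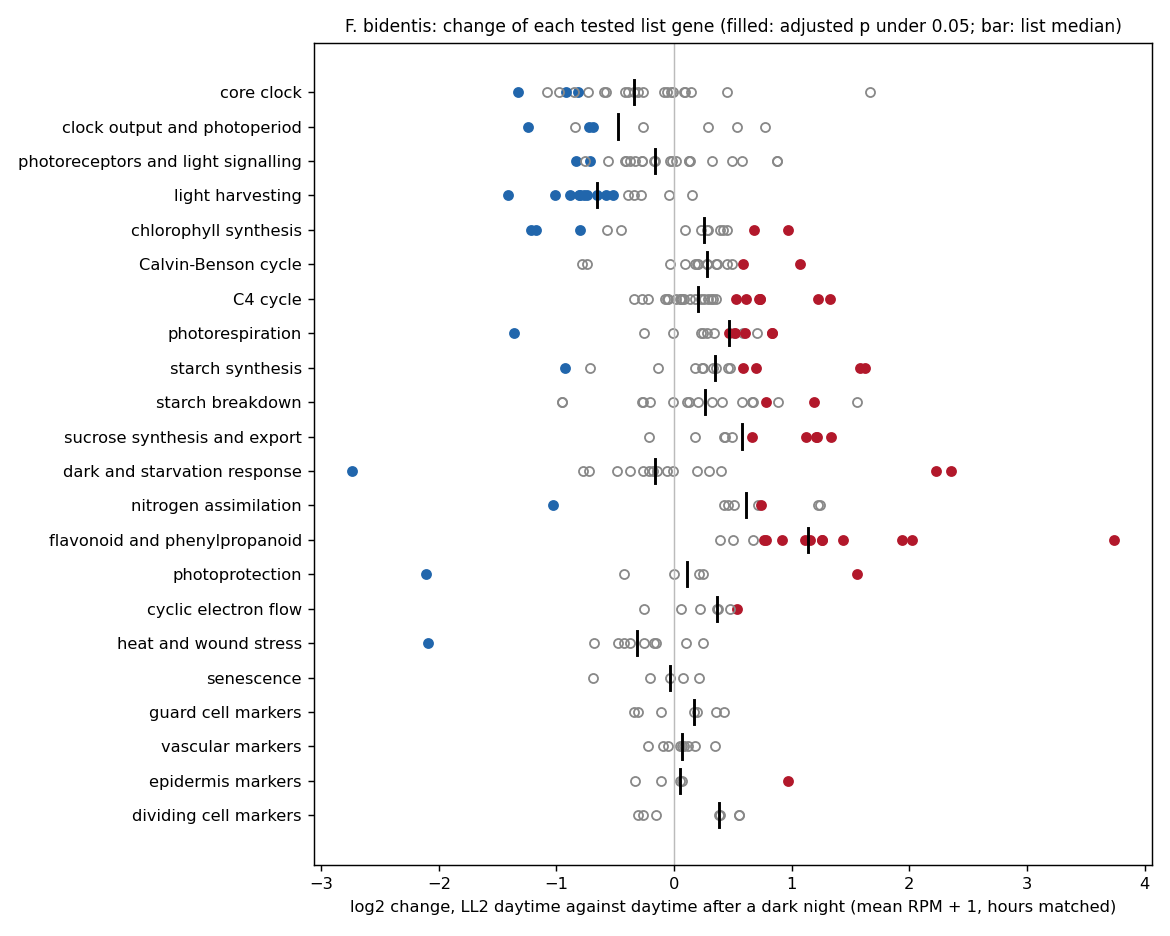
Log2 change of every tested list gene at LL2 daytime against daytime after a dark night (x axis, hours matched), by gene list (y axis). Filled points passed an adjusted p under 0.05, and black bars are list medians. Light harvesting has 10 filled points below 0, and the flavonoid list has 11 above 0.

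The most visible change in the core clock was the loss of the difference between ZT04 and ZT08. On the 3 days after a dark night the 23 tested clock genes differed between the hours by a median of 0.908, 1.08 and 0.822 log2 units (LD1, LD2, LL1), and 11, 12 and 11 of them by at least 2-fold. On LL2 the median was 0.166 and none differed by 2-fold, the largest difference being 0.447. The same contrast shrank less over all 13294 genes, with medians of 0.297, 0.312 and 0.263 before and 0.186 on LL2. Genes with at least a 2-fold difference between the hours numbered 855 (6.43%), 826 (6.21%) and 673 (5.06%) on the earlier days and 318 (2.39%) on LL2. These are single differences per day and carry no test.

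Whether the change after the skipped night was unequal at the hours was tested as an interaction. Each hour of LL2 is a single mean here, so the spread comes from the 6 reference means alone and the LL2 means are assumed to vary like them. The interaction passed for 591 genes (4.45%; 220 to 1985 when single reference means were left out), of which 94 (0.707%) had the more positive change at ZT08 and 497 (3.74%) at ZT04. After TMM scaling 504 genes passed (3.79%), 152 (1.14%) and 352 (2.65%) in these directions, and that scaling moves the median over all genes from -0.12 to 0.04. Among the clock genes 9 of 23 passed: CCA1, LHY, RVE8, TOC1, PRR5, LUX, ELF4, FKF1 and JMJD5.

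Morning genes lost their ZT04 level. CCA1 stood at 69, 48 and 45 RPM at ZT04 and at 4.5, 5 and 2.5 RPM at ZT08 of LD1, LD2 and LL1, and then at 10.5 and 9 RPM on LL2. The LL2 values lay between the ranges of both hours and close to each other, 2.23 log2 units below the reference at ZT04 (SE 0.33) and 1.04 above it at ZT08 (SE 0.33), an interaction of 3.27 (SE 0.46, adjusted p 0.00847). LHY, its close homologue, followed with 248.5, 192.5 and 153 RPM at ZT04, 15, 16.5 and 10 RPM at ZT08, and 44.5 and 34 RPM on LL2 (interaction 3.37, SE 0.43, adjusted p 0.00612). The 2 genes ran in parallel over all 25 F. bidentis means (Pearson r 0.994), and reads of one Flaveria gene may have been divided between them. For neither gene did the mean over both hours differ from the reference (adjusted p 0.649 and 0.767).

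RVE8, a MYB activator of evening genes, read 89, 98 and 81 RPM at ZT04 and 23, 24 and 20 RPM at ZT08 after dark nights. On LL2 it read 23.5 and 21 RPM, so that both values sat at the usual ZT08 level (interaction 1.80, SE 0.24, adjusted p 0.00702). LNK1, a coactivator that works with RVE8, was lower at both hours: 376, 274 and 274.5 RPM at ZT04 and 102.5, 112 and 104.5 RPM at ZT08, against 83.5 and 61 RPM. Both LL2 values of LNK1 lay below all 6 reference values, a change of -1.32 (SE 0.23, adjusted p 0.0108). RVE6, a relative of RVE8, was also lower (31 and 26.5 RPM against 45.5 to 73 RPM; -0.92, SE 0.16, adjusted p 0.0129).

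TOC1 and JMJD5 had the opposite sign at ZT04. TOC1, which represses CCA1 and LHY, was nearly silent at ZT04 after a dark night (3.5, 2.5 and 2 RPM) and stood at 35.5, 53.5 and 36.5 RPM at ZT08. On LL2 it already stood at 40.5 RPM at ZT04 and at 36 RPM at ZT08, so the morning trough was missing and the ZT08 value lay inside the reference range. The change was 3.52 at ZT04 (SE 0.28) and -0.19 at ZT08 (SE 0.28), an interaction of -3.71 (SE 0.40, adjusted p 0.00345). JMJD5, a jumonji-domain gene linked to the clock, read 0.5 RPM at ZT04 on all 3 reference days and 45, 45 and 32 RPM at ZT08. On LL2 it read 9.5 and 10 RPM, between both groups (interaction -4.71, SE 0.31, adjusted p 0.00061).

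FKF1, a blue-light sensing F-box protein, behaved differently from TOC1: its afternoon rise was the part that was missing. It read 18.5, 57 and 46.5 RPM at ZT04 and 464.5, 550 and 457 RPM at ZT08 on the reference days, but 69 and 58 RPM on LL2 (interaction -3.95, SE 0.70, adjusted p 0.019). PRR5 (13.5 RPM at ZT08 against 45, 58.5 and 42.5 RPM; interaction -2.06, SE 0.32, adjusted p 0.0117) and LUX, an evening complex subunit (4.5 RPM against 14, 14 and 12.5 RPM; -2.26, SE 0.31, adjusted p 0.00739), likewise lacked the ZT08 rise. ELF4, another subunit, passed narrowly (-1.46, SE 0.33, adjusted p 0.0456) and did not pass after TMM scaling (adjusted p 0.0609). The FKF1 call was lost when the ZT08 mean of LD1, LD2 or LL1 was left out, and the ELF4 call without LD1 ZT08, LD2 ZT04, LD2 ZT08 or either LL1 mean.

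Counted over both hours, 0 clock genes were higher and 3 were lower: LNK1, RVE6 and PRR7, which represses the morning genes (68.5 and 66 RPM against 108.5 to 148 RPM; -0.82, SE 0.14, adjusted p 0.0115). That is 3 of 23 against 2.59% of all genes, and the median over the list was -0.34 (all genes 0.00). The count rests on which LL2 mean is present: it was 1 higher and 10 lower without LL2 ZT04, 2 higher and 4 lower without LL2 ZT08 (which ended the calls of RVE6 and PRR7), and 0 in both directions against the LD days alone or with the day trend. GI, which stabilises the photoreceptor ZTL, read 653 and 626 RPM against 655 to 1647.5 RPM and did not pass (adjusted p 0.164). PRR9 (7 and 8.5 RPM against 6.5 to 40.5 RPM) and PRR3 (65.5 and 64.5 RPM against 71 to 106 RPM) did not pass either.

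**Figure D2:**
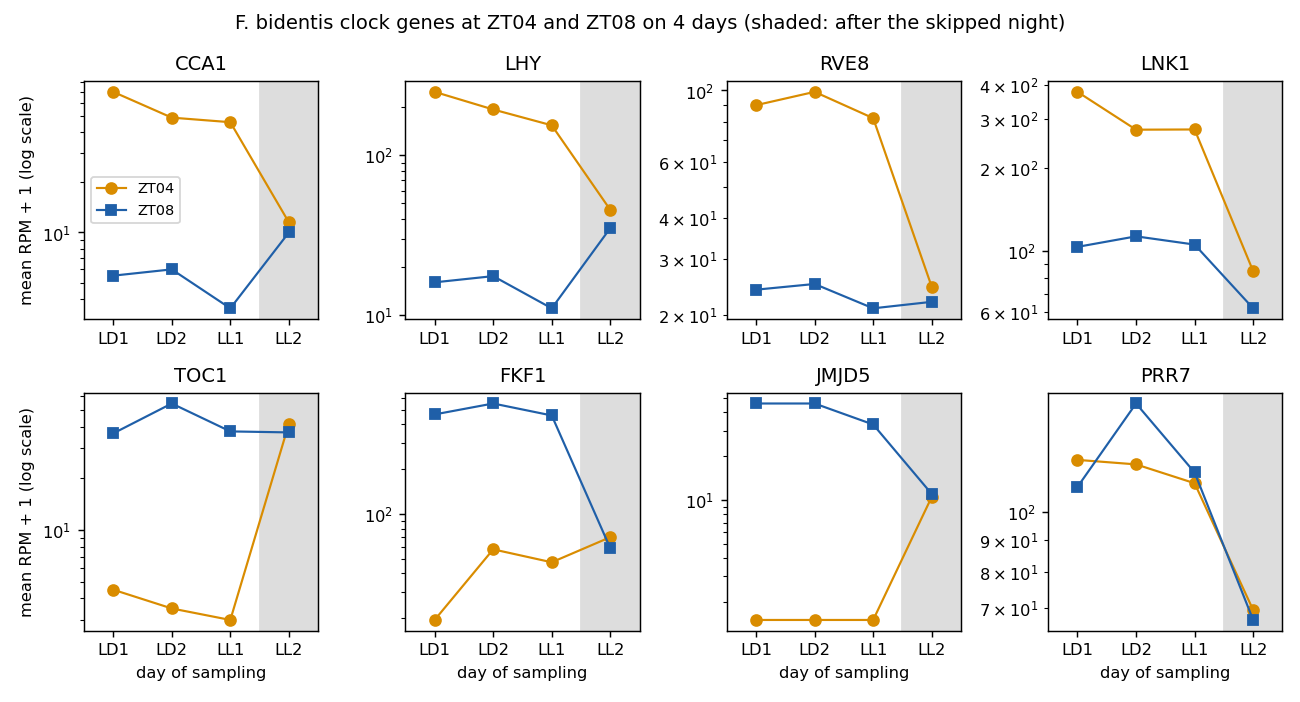
Mean RPM + 1 on a log axis of 8 clock genes at ZT04 (orange circles) and ZT08 (blue squares) on the 4 days of sampling, with LL2 shaded. The hours are far apart on LD1, LD2 and LL1 in all genes shown but PRR7, and they meet on LL2 (CCA1 10.5 and 9 RPM, TOC1 40.5 and 36 RPM).

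Of 8 tested clock output genes 3 were lower and 0 higher, against 2.59% and 3.75% of all genes: CO, the photoperiodic activator of flowering (8.5 and 7 RPM against 10 to 37 RPM; -1.24, SE 0.23, adjusted p 0.016), and its repressors CDF2 (-0.73, SE 0.12, adjusted p 0.0103) and CDF3 (-0.69, SE 0.13, adjusted p 0.0177). Omitting LL2 ZT04 ended the calls of CO and CDF3, and LL1 ZT08 or LL2 ZT08 also that of CDF3. All 3 calls, that of CDF2 included, were lost against the LD days alone and with the day trend. Of 23 photoreceptor and light signalling genes 2 were lower and 0 higher (0 to 2 lower and 0 to 3 higher when single means were left out), the blue-light receptors PHOT1 (279 and 294 RPM against 344.5 to 730.5 RPM; -0.83, SE 0.18, adjusted p 0.029) and CRY2 (46 and 40.5 RPM against 57 to 96.5 RPM; -0.71, SE 0.17, adjusted p 0.0385). Both calls were lost when any of LD1 ZT08, LD2 ZT04, LD2 ZT08, LL1 ZT08 or LL2 ZT08 was left out, and that of PHOT1 also without LL1 ZT04. Against the LD days alone or with the day trend 0 genes of this list passed. In this list 3 genes passed for the interaction, the largest being that of BBX18, a B-box protein (35, 35.5 and 32.5 RPM at ZT04, 2, 2.5 and 1.5 RPM at ZT08, then 8 and 7 RPM; 3.40, SE 0.30, adjusted p 0.00199). SPA3, a suppressor of photomorphogenesis that acts in the dark with the ubiquitin ligase COP1, kept its ZT04 level through ZT08 of LL2 (76.5 and 76 RPM, against 19 to 22.5 RPM at ZT08 before; 1.96, SE 0.23, adjusted p 0.00404).

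Antenna genes of both photosystems were lower at both hours. The light-harvesting genes encode the chlorophyll-binding proteins that feed excitation to photosystems I (LHCA) and II (LHCB). Together the list summed to between 100309 and 126395.5 RPM in the 6 reference means and to 68692 and 69142 RPM on LL2, so both LL2 sums lay below all others. Of 15 tested members 10 were lower and 0 higher, against 2.59% and 3.75% of all genes, with a list median of -0.65. The count was 9 after TMM scaling and 8 to 10 when single means were left out, 6 against the LD days alone and 1 with the day trend.

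LHCB6, a minor antenna of photosystem II, read 3158, 2666.5 and 2844.5 RPM at ZT04 and 2712, 2487 and 2629.5 RPM at ZT08 of LD1, LD2 and LL1. On LL2 it read 1075 and 987.5 RPM, less than any reference mean by a wide margin (-1.41, SE 0.11, adjusted p 0.000557). LHCB3, part of the main trimeric antenna, fell from 7898.5 to 11672 RPM to 4785 and 4735 RPM (-1.01, SE 0.12, adjusted p 0.00261). The photosystem I members LHCA3 (3690 and 3966 RPM against 6406 to 7187.5 RPM; -0.81, SE 0.10) and LHCA4 (5322 and 5303 RPM against 8279 to 9911 RPM; -0.76, SE 0.10) fell as well, at adjusted p of 0.00244 and 0.00309. LHCB1.2, the most abundant antenna transcript at 29748.5 to 43859 RPM, fell to 23040 and 22844.5 RPM (-0.65, SE 0.12, adjusted p 0.0142). Members that did not pass included LHCA5 at 942.5 and 933 RPM against 755 to 969 RPM, and LHCA6 at 1098.5 and 1073.5 RPM against 1021 to 1285.5 RPM. The near-identical LHCB2.2 and LHCB2.3 (r 0.995 over 25 means) may share reads.

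Both LL2 daytime values lay inside the range of the following lit night (ZT12 to ZT20 of LL2) for 12 of the 15 antenna genes, and inside that of the preceding one (LL1) for 5. LHCB6 was at 104 to 792 RPM in the dark of LD, 468.5 to 1051 RPM at ZT12 to ZT20 of LL1 and 678.5 to 1341 RPM at the same hours of LL2. Its LL2 daytime values of 1075 and 987.5 RPM thus fell inside the range of the lit night that followed. For LHCA3 the dark values spread from 1439.5 to 4556 RPM, with 2355 to 3724 RPM in the lit night of LL1 and 2889.5 to 4299.5 RPM in that of LL2, which spans its LL2 daytime values.

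Chlorophyll synthesis genes that passed went in both directions. PORB and PORC, the light-dependent reductases that make chlorophyllide, were lower: PORB read 986 to 1609.5 RPM on the reference days and 474 and 655.5 RPM on LL2 (-1.21, SE 0.13, adjusted p 0.0019), and PORC 825 to 1061.5 RPM and then 512 and 597 RPM (-0.80, SE 0.12, adjusted p 0.00541). CAO, which makes chlorophyll b, fell from 375.5 to 671 RPM to 215.5 and 231 RPM (-1.17, SE 0.17, adjusted p 0.00593). Against these, CHLG, which adds the phytol tail, was higher at 211 and 224.5 RPM than the 91.5 to 125.5 RPM before (0.97, SE 0.14, adjusted p 0.00515), as was FLU, a brake on early tetrapyrrole synthesis (131 and 152 RPM against 78.5 to 100 RPM; 0.68, SE 0.13, adjusted p 0.0154). That makes 2 higher and 3 lower of 14, against 3.75% and 2.59% of all genes, and the FLU call was lost without LL2 ZT08. The counts were 1 and 2 against the LD days alone and 0 and 1 with the day trend.

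Zeaxanthin epoxidase (ZEP), which turns zeaxanthin back into violaxanthin and so ends heat dissipation in the antenna, had the smallest adjusted p of the photoprotection list. It read 1319.5, 1283 and 1193.5 RPM at ZT04 and 973, 1303.5 and 1051.5 RPM at ZT08, and then 297 and 250 RPM, far below every reference mean (-2.11, SE 0.14, adjusted p 0.000549, 4.32-fold lower). The gene is normally low at night, with 67 to 194 RPM in the dark of LD, and it read 180 to 259 RPM in the lit night of LL1 and 212.5 to 279.5 RPM in that of LL2. ELIP1, an early light-induced chlorophyll-binding protein, was higher at 352.5 and 179 RPM against 264.5, 221.5 and 220.5 RPM at ZT04 and 43.5, 27 and 23.5 RPM at ZT08 (1.56, SE 0.39, adjusted p 0.0494). That call was lost after TMM scaling (adjusted p 0.0634) and without any single mean but LD1 ZT04 and LL2 ZT04. PSBS, a sensor of lumen acidity in the antenna, read 1950.5 and 1818.5 RPM against 2297 to 2753.5 RPM and did not pass (adjusted p 0.0527).

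**Figure D3:**
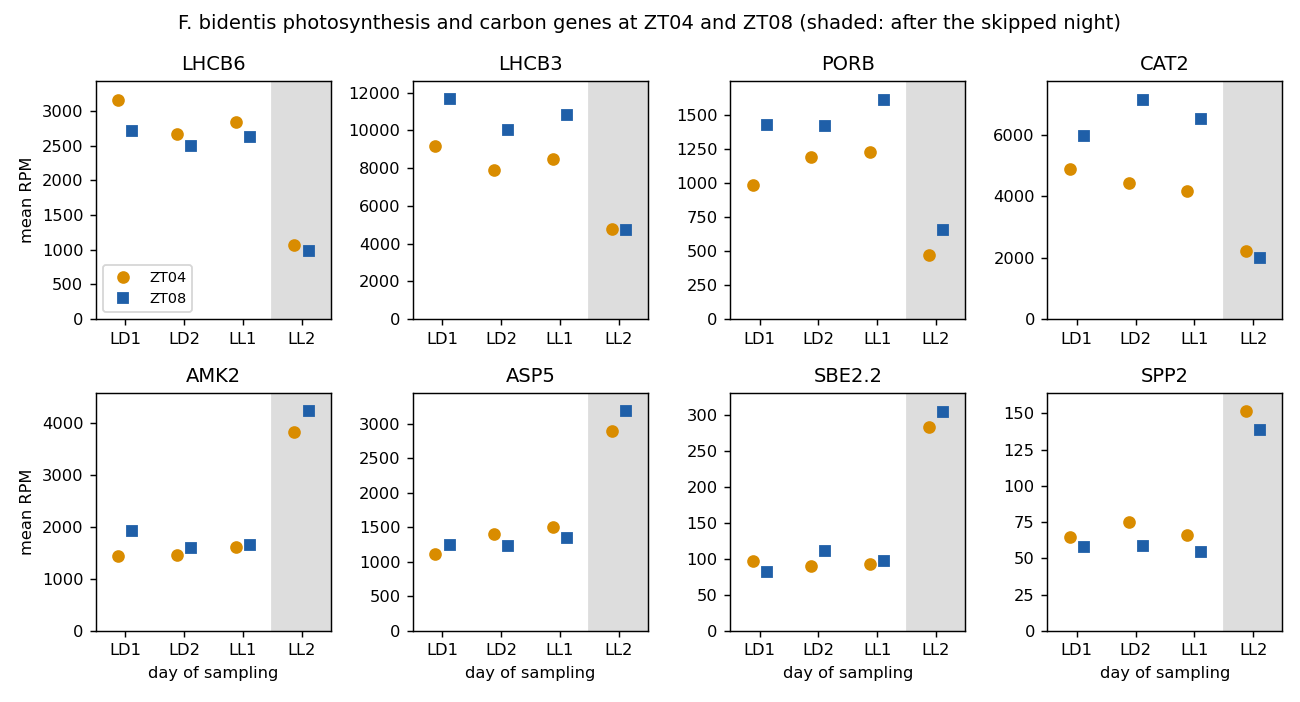
Mean RPM (linear axes from 0) of 8 genes of photosynthesis and carbon metabolism at ZT04 (orange circles) and ZT08 (blue squares) on 4 days, with LL2 shaded. LHCB6, LHCB3, PORB and CAT2 fall on LL2 at both hours, and AMK2, ASP5, SBE2.2 and SPP2 rise.

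Genes of carbon fixation were mostly higher where they changed. In the C4 cycle list, 7 of 26 tested genes were higher and 0 lower (3.75% and 2.59% of all genes), with a median of 0.21; 5 of the 7 passed after TMM scaling, 2 against the LD days alone, 1 with the day trend, and 3 to 8 when single means were left out. Summed over the list, the level was 88390 to 112885.5 RPM before and 129410.5 and 132638 RPM on LL2. AMK2, the adenylate kinase that recycles the AMP made by PPDK, read 1445.5, 1458.5 and 1617 RPM at ZT04 and 1917, 1587.5 and 1639 RPM at ZT08, then 3826.5 and 4218 RPM (1.32, SE 0.12, adjusted p 0.000805). The LL2 means of AMK2 were about equal to each other and above all reference means, 2.5-fold on average. ASP5, an aspartate aminotransferase, rose in the same way from 1112 to 1500 RPM to 2894.5 and 3179.5 RPM (1.22, SE 0.14, adjusted p 0.00213).

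PPDK, which regenerates the CO2 acceptor phosphoenolpyruvate, rose from 23476.5 to 27948.5 RPM to 39308.5 and 40328 RPM (0.61, SE 0.10, adjusted p 0.00839), a call that was lost with a spread shared with F. robusta. NADP-MDH, which reduces oxaloacetate to malate, rose from 3898 to 5620 RPM to 7942.5 and 7511.5 RPM (0.72, SE 0.12, adjusted p 0.00875), a call lost without LL2 ZT08. The calls of PPDK and NADP-MDH were also lost against the LD days alone and with the day trend. The other members that passed were DIT1, PPA6 and ALAAT1, named after their values were seen. PPC1, the phosphoenolpyruvate carboxylase with the most reads, stood at 25472.5 and 27595 RPM, inside its reference range of 18276 to 28675 RPM (adjusted p 0.516). AMK2 was at 1537.5 to 2037 RPM in the dark of LD and at 2333.5 to 3820 RPM at ZT12 to ZT20 of LL1. For this gene the first lit night thus lay above the dark values and below the LL2 daytime values.

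In the Calvin-Benson list 2 of 15 were higher and 0 lower, against 3.75% and 2.59% of all genes (1 to 5 higher and 0 to 2 lower when single means were left out, the highest counts without LL2 ZT04). These were RPI (341 and 397 RPM against 151 to 208.5 RPM; 1.07, SE 0.15, adjusted p 0.00526) and GAPB (0.59, SE 0.15, adjusted p 0.0467). RPI interconverts pentose phosphates, and GAPB is a subunit of the reductive step of the cycle. After TMM scaling GAPB did not pass and CP12-2, a redox-dependent brake on the cycle, did as lower (517 and 466 RPM against 614.5 to 1248 RPM; adjusted p 0.054 as deposited and 0.0452 after scaling). The GAPB call was also lost without any single mean except LL2 ZT04. Against the LD days alone the list had 1 higher and 0 lower, and with the day trend 0 in both directions.

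Photorespiration, which recycles the product of Rubisco's oxygenase reaction, had 5 higher and 1 lower of 15, against 3.75% and 2.59% of all genes. It had 0 higher and 1 lower against the LD days alone, and 0 in both directions with the day trend. When single means were left out 0 to 7 were higher. After TMM scaling 2 were higher and 1 lower. Those passing both scalings were GLDT, a glycine cleavage subunit (706.5 and 764.5 RPM against 330 to 495 RPM; 0.83, SE 0.14, adjusted p 0.0114), and SGAT, the serine to glyoxylate aminotransferase (1206.5 and 1175.5 RPM against 612.5 to 897 RPM; 0.84, SE 0.16, adjusted p 0.0167), and both were lost without LL2 ZT08. PGLP1, the first enzyme of the pathway, read 768.5 and 793 RPM against 460.5 to 634.5 RPM (0.52, SE 0.13, adjusted p 0.0418; 0.0973 after TMM scaling), and its call was lost in 6 of the 8 omissions. The lower gene was CAT2, the peroxisomal catalase, which had read 4886, 4439 and 4159 RPM at ZT04 and 5959, 7118.5 and 6518.5 RPM at ZT08 and read 2214.5 and 2000 RPM on LL2. CAT2 fell below all reference means at both hours (-1.36, SE 0.16, adjusted p 0.00236).

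Several starch and sucrose synthesis genes were higher. SBE2.2, a starch branching enzyme, read 97, 90.5 and 92.5 RPM at ZT04 and 82, 111.5 and 97.5 RPM at ZT08, and then 282.5 and 304 RPM (1.62, SE 0.14, adjusted p 0.000716, 3.07-fold). Its homologue SBE2.1 gave 258.5 and 267 RPM against 77 to 104 RPM, and with an r of 0.997 over 25 means the pair may be one Flaveria gene counted under 2 names. APS1, the small subunit of ADP-glucose pyrophosphorylase, which commits carbon to starch, rose from 705 to 819 RPM to 1231.5 and 1305 RPM (0.70, SE 0.11, adjusted p 0.00897). Its large subunit APL1 passed as deposited (0.59, SE 0.13, adjusted p 0.0257) and not after TMM scaling (0.0662), nor without LD1 ZT08, LD2 ZT08, LL1 ZT08 or LL2 ZT08. Against them GBSS1, which makes amylose, lost its ZT04 level (1496.5, 1975.5 and 1873 RPM, then 619 RPM; at ZT08 609 to 709.5 RPM, then 510.5 RPM), a change of -0.93 (SE 0.23, adjusted p 0.0467; 0.0678 after TMM scaling) that was lost in every omission of a single mean but that of LL2 ZT08. In all, 4 of 14 starch synthesis genes were higher and 1 was lower, against 3.75% and 2.59% of all genes. The counts were 2 and 0 both against the LD days alone and with the day trend.

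Of 10 sucrose synthesis and export genes 5 were higher and 0 lower, against 3.75% and 2.59% of all genes. The higher count was 4 after TMM scaling, 3 to 6 when single means were left out, 3 against the LD days alone and 0 with the day trend. The sucrose-phosphate phosphatase SPP2, which completes sucrose synthesis, rose from 54 to 75 RPM to 151.5 and 138.5 RPM (1.204, SE 0.12, adjusted p 0.00118), in parallel with SPP1 (r 0.994 over 25 means; 52 and 43.5 RPM against 16 to 23.5 RPM). CYFBP, the cytosolic fructose bisphosphatase, rose from 343.5 to 463.5 RPM to 940 and 846.5 RPM (1.12, SE 0.15, adjusted p 0.00347). SPS4F, a sucrose-phosphate synthase, rose mainly at ZT08 (212 and 288.5 RPM against 133 to 170.5 RPM at ZT04 and 62.5 to 67.5 RPM at ZT08; 1.34, SE 0.29, adjusted p 0.0287), and this call ended without LD1 ZT08, LD2 ZT08, either LL1 mean or LL2 ZT08. Starch breakdown had 2 of 18 higher and 0 lower, against 3.75% and 2.59% of all genes. These were the debranching enzyme ISA3 (181 and 157 RPM against 64 to 92 RPM; 1.19, SE 0.14, adjusted p 0.00213) and the glucan transferase DPE1 (99.5 and 127.5 RPM against 62 to 71.5 RPM; 0.78, SE 0.12, adjusted p 0.00798), the latter lost without LL2 ZT08. The change in this list was often unequal at the hours: the interaction passed for 5 of the 18, against 4.45% of all genes. Its summed level spanned 1911 to 6745 RPM in the reference means and was 3353.5 and 3539 RPM on LL2.

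The flavonoid and phenylpropanoid list had the highest share of called members. Of 14 tested genes 11 were higher and 0 lower, against 3.75% and 2.59% of all genes, and the median was 1.14. The count was the same after TMM scaling, 7 to 13 when single means were left out and 7 both against the LD days alone and with the day trend. CHS, chalcone synthase at the entry of the pathway, read 612.5, 531 and 459 RPM at ZT04 and 369, 300.5 and 253 RPM at ZT08, and then 1744 and 1365 RPM (1.94, SE 0.18, adjusted p 0.000987, 3.84-fold). F3H, flavanone 3-hydroxylase, read 139 to 241 RPM and then 865 and 647.5 RPM (2.02, SE 0.22, adjusted p 0.0019). Both genes exceeded every reference mean at both hours.

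DFR, dihydroflavonol reductase on the branch to anthocyanins, had the largest change of the list from a very low start. It read 1, 0.5 and 1 RPM at ZT04 and 1.5, 0.5 and 1 RPM at ZT08, and then 16 and 36.5 RPM (3.74, SE 0.27, adjusted p 0.000557). F3PH, the flavonoid 3'-hydroxylase, rose from 35 to 73.5 RPM to 158.5 and 120.5 RPM (1.44, SE 0.16, adjusted p 0.00197). The flavonol regulators MYB12 and MYB111 rose with the enzymes, but PAP1, the anthocyanin regulator, did not pass (1.5 and 1.5 RPM against 0.5 to 1 RPM, adjusted p 0.233); these 3 were named after their values were seen.

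The genes differed in timing within constant light. In the first lit night (LL1) CHS lay above both LL2 daytime values (1744 and 1365 RPM) at ZT16 and between them at ZT20. It read 625.5, 2156.5 and 1708 RPM at ZT12, ZT16 and ZT20 of LL1. DFR read 2, 5.5 and 7.5 RPM at those hours, 18 RPM at ZT00 of LL2, then 51, 29.5 and 70 RPM at ZT12 to ZT20 of LL2 and 64 RPM at the start of day 3. ZEP remained between 180 and 297 RPM at ZT04 to ZT20 of LL2 and at ZT12 to ZT20 of LL1.

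**Figure D4:**
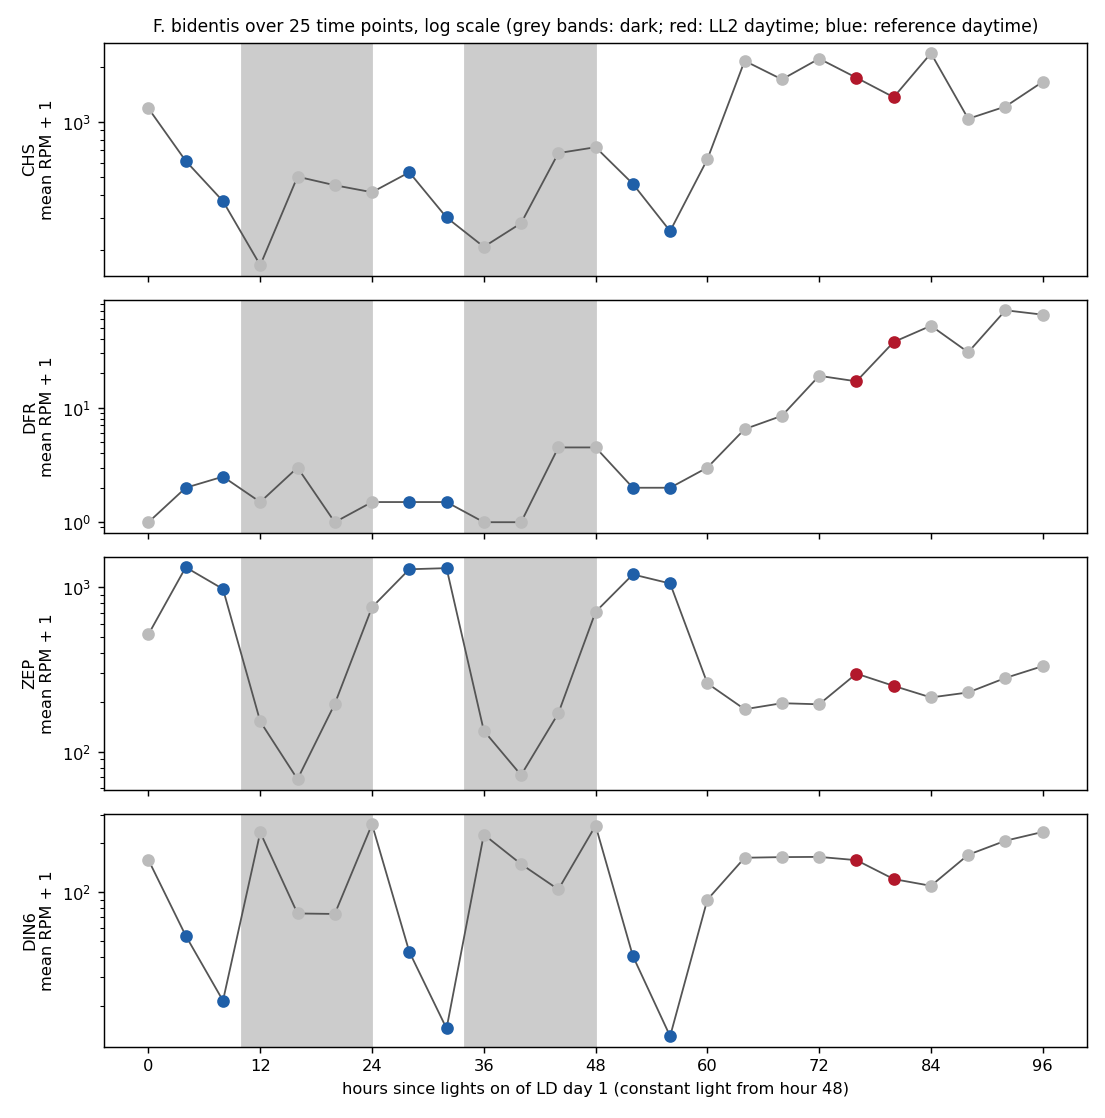
Mean RPM + 1 (log axes) of CHS, DFR, ZEP and DIN6 at all 25 F. bidentis time points against hours since lights on of LD1, with dark periods in grey bands. Red points are LL2 at ZT04 and ZT08, and blue points the 6 reference means; the red points lie above the blue ones for CHS, DFR and DIN6 and below them for ZEP.

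Among genes known from darkness and sugar starvation 2 of 16 were higher and 1 was lower, against 3.75% and 2.59% of all genes. The list median was -0.16. Against the LD days alone 2 were higher and 0 lower, and with the day trend 1 and 0. DIN6, a glutamine-dependent asparagine synthetase, was low after a dark night (53, 42 and 39.5 RPM at ZT04, then 20.5, 13.5 and 12 RPM at ZT08). On LL2 it stood at 156.5 and 119.5 RPM (2.36, SE 0.27, adjusted p 0.00219, 5.12-fold), inside its range of 72.5 to 232.5 RPM in the dark of LD. PRODH1, proline dehydrogenase, read 1 to 2.5 RPM before and 15.5 and 8.5 RPM on LL2 (2.23, SE 0.28, adjusted p 0.00302), below its dark values of 20.5 to 41 RPM. The gene AT5G38710, of the same described family, ran in parallel with PRODH1 (r 0.992) and may share its reads. DRM1, a dormancy-associated gene, went the other way, from 133, 54.5 and 47.5 RPM at ZT04 and 445, 370.5 and 397.5 RPM at ZT08 to 31.5 and 19 RPM (-2.73, SE 0.63, adjusted p 0.0374), a call lost in every omission but those of LL1 ZT04 and LL2 ZT04.

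Nitrogen assimilation had 1 of 8 higher (4 without LL2 ZT04 and 2 without LL2 ZT08, against 3.75% of all genes), the nitrate transporter NRT1.1 (52.5 and 45.5 RPM against 26 to 35 RPM; 0.74, SE 0.13, adjusted p 0.0139), and 1 lower (against 2.59% of all genes), the cytosolic glutamine synthetase GLN1.2 (292 and 200.5 RPM against 410.5 to 678 RPM; -1.03, SE 0.19, adjusted p 0.0161; lost without LL2 ZT08 or with a spread shared with F. robusta). Both calls were lost against the LD days alone and with the day trend. The plastid enzyme GLN2 read 1247.5 and 1499 RPM and did not pass (adjusted p 0.112). In the heat and wound list 0 of 10 were higher and 1 was lower, against 3.75% and 2.59% of all genes. The lower gene was LOX2, the plastid lipoxygenase of jasmonate synthesis (94.5 and 103 RPM against 266 to 826.5 RPM; -2.09, SE 0.29, adjusted p 0.00504). HSP101, a heat shock chaperone, read 10.5 and 12 RPM against 15.5 to 27.5 RPM (adjusted p 0.0825). Among 7 genes of cyclic electron flow 1 was higher and 0 lower, against the same shares. It was NDHO, a subunit of the plastid NDH complex (0.54, SE 0.12, adjusted p 0.0282), which did not pass after TMM scaling (0.0509). The NDHO call was lost in every omission except those of LD1 means, and also against the LD days alone and with the day trend.

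Lists for age and for other cell types gave few calls. None of 5 senescence genes passed, and SAG12, a marker of late senescence, read 90.5 and 27.5 RPM against 43 to 88.5 RPM. None of 7 guard cell, 9 vascular or 7 dividing cell markers passed, and their summed levels on LL2 (222 and 195.5, 770 and 748, and 72 and 157 RPM) compared with 175.5 to 293, 697.5 to 857 and 93 to 140.5 RPM before. Of the sums of these lists only those of the dividing cell markers lay outside, on either side. Of 5 epidermis markers GL2, a trichome regulator, was higher (8 and 6.5 RPM against 2 to 5 RPM; 0.97, SE 0.23, adjusted p 0.0386; lost in 5 of the 8 omissions), while the list sum of 231 and 263.5 RPM compared with 234.5 to 310.5 RPM. The epidermis sum at ZT04 of LL2 thus lay just below its reference range. The part of these cell types in the other results was not tested.

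The 10 largest declines beyond the lists were of mixed function. Both genes described as CYP707A cytochromes, which inactivate abscisic acid, fell, with an r of 0.657 between them over 25 means: AT4G19230 from 11 to 32 RPM to 3 and 4 RPM (-2.20, SE 0.29, adjusted p 0.00396) and AT2G29090 from 17 to 54.5 RPM to 5 and 5 RPM (-2.17, SE 0.26, adjusted p 0.00281). AT4G19170, a carotenoid cleavage dioxygenase described as NCED4, read 699.5, 551.5 and 543 RPM at ZT04 and 260, 247.5 and 250.5 RPM at ZT08, and then 60.5 and 77 RPM (-2.49, SE 0.29, adjusted p 0.00244). The largest decline by fold was AT5G19140, an aluminium-induced protein, from 514.5 to 1472.5 RPM to 162 and 133.5 RPM (-2.60, SE 0.21, adjusted p 0.000557, 6.07-fold). The putative ribosomal protein AT5G24490 fell from 197 to 318 RPM to 29.5 and 58 RPM (-2.48, SE 0.24, adjusted p 0.00124), and AT3G25180, a CYP82G cytochrome, from 6 to 18 RPM to 1.5 and 3.5 RPM (-1.80, SE 0.17, adjusted p 0.000987). AT1G12450, AT3G01640, AT2G19810 and AT5G02750 completed this group, with changes between -2.38 and -1.78; the calls of the last pair were lost in 6 of the 8 omissions each.

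Among the largest increases beyond the lists was AT4G22870, a 2-oxoglutarate oxygenase, which rose from 2.5 to 7 RPM to 17 and 22 RPM (1.97, SE 0.30, adjusted p 0.00668; lost without LL2 ZT08). AT4G26850, described as a mannose-1-phosphate guanylyltransferase and known in Arabidopsis for ascorbate synthesis, rose from 263.5, 384 and 395 RPM at ZT04 and 56.5, 82 and 76.5 RPM at ZT08 to 659 and 413.5 RPM (1.74, SE 0.33, adjusted p 0.0176; lost without LL2 ZT08 or with a spread shared with F. robusta). AT3G29240, of unknown function, rose from 1.5 to 5 RPM to 18 and 21 RPM (2.41, SE 0.20, adjusted p 0.000632). Its values in the dark of LD were 13.5 to 120 RPM, so the LL2 values lay at the lower end of the night range. AT4G17360, a formyl transferase, rose from 3.5 to 8 RPM to 28.5 RPM at both hours (2.04, SE 0.22, adjusted p 0.0019), inside its dark range of 20.5 to 38.5 RPM. AT5G38710 (2.42, SE 0.30), AT5G67480 (BTB and TAZ domain protein 4; 2.27, SE 0.30), AT5G06130 (2.23, SE 0.49), AT4G27900 (2.06, SE 0.43), AT5G66600 (1.68, SE 0.24) and AT5G41080 (1.68, SE 0.20) completed the group, those of AT5G06130 and AT4G27900 being lost in 4 of the 8 omissions each and that of AT5G41080 with a spread shared with F. robusta.

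The unequal change at the hours also reached genes outside the clock list. AT2G15890 lost its ZT08 rise (280, 240.5 and 256.5 RPM, then 16 RPM; interaction -4.79, SE 0.29, adjusted p 0.000505). AT3G07650, CONSTANS-like 9, gained a ZT04 value of 103.5 RPM where it had read 5.5, 4.5 and 5 RPM, while its ZT08 value of 81 RPM compared with 56.5 to 76.5 RPM (-3.81, SE 0.28, adjusted p 0.000756). The phosphate transporter AT2G38940 (PHT1;4) stood at 371.5 RPM at ZT04 against 30 to 38 RPM, and at 133 RPM at ZT08 against 105 to 119.5 RPM (-3.20, SE 0.25, adjusted p 0.000958). AT3G01310, of the phosphoglycerate mutase family, was above the reference at ZT04 (119.5 RPM against 13 to 15 RPM) and below it at ZT08 (145 RPM against 212.5 to 278.5 RPM; -3.72, SE 0.26). In the opposite direction AT1G42550, plastid movement impaired 1, kept 16 RPM at ZT08 where it had read 3.5 to 4.5 RPM (1.98, SE 0.25, adjusted p 0.00612), and AT2G26800 and AT4G00165 gave 1.86 (SE 0.23) and 2.40 (SE 0.31).

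On day 1 of constant light the ZT04 and ZT08 samples had still followed a dark night, and they were compared with the LD means that also serve as reference above. No gene of 13282 (0%) differed between LL1 and the LD days in limma, with 192 at an unadjusted p under 0.05 and none after fitting without the mean trend; none passed in any list. The median size of the difference was 0.11 log2 units, against 0.19 for the skipped night. The genes called for the skipped night were selected with LL1 and LD pooled as reference, and a gap between these widens the error of that test. Small LL1 differences are thus favoured in the called genes, and they do not show that these genes were unchanged on LL1. Over the 91 genes called for the skipped night in the lists or by the naming rule, the median size was 0.103 and the largest 0.852 (AT2G19810, lower on LL1). F3H (-0.48), AT4G22870 (-0.47), AT3G01640 (-0.46), DRM1 (-0.43) and CHS (-0.35) were also lower on LL1, while ZEP (-0.11), AMK2 (0.03) and LHCB6 (-0.01) differed less.

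The same contrast in F. robusta allows a direct test of what differed in F. bidentis. As deposited, the median of all genes in F. robusta moved by 0.41 after the skipped night, and 52.8% of genes passed (47.7% higher, 5.1% lower). After TMM scaling the median moved by 0.01, so TMM values are used here. The F. robusta LL2 daytime means stood apart from its reference means. Their TMM factors over all 50 means were 1.246 and 1.255, against 0.826 to 0.958. In F. bidentis these were 0.92 and 0.905 against 0.843 to 0.982. The species comparison rests on these F. robusta means, and why they stood apart was not tested. Responses differed between the species for 2333 of 13450 genes (17.3%) after TMM scaling, more positively in F. bidentis for 9.23% and more negatively for 8.11%. As deposited they differed for 5086 (37.8%), split 4.83% and 33%. Within F. robusta 29.2% of genes passed after TMM scaling: 2052 genes were higher (15.3%) and 1868 lower (13.9%). Of the 770 genes tested in both species that passed in F. bidentis on this scale, 399 (51.8%) passed in F. robusta too, which is 10.5% of its 3788, and 312 of these had the same direction.

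The antenna response was smaller in the C4 species. In F. robusta 14 of 15 light-harvesting genes were lower, with a median of -2.53 against -0.68 in F. bidentis, and the response of 14 differed between the species. LHCA1 fell by 0.55 in F. bidentis and by 3.19 in F. robusta, a difference of 2.66 (adjusted p 1.79e-06). LHCB2.2 gave -0.83 and -3.44 (difference 2.64, adjusted p 2.1e-06), and LHCA4, LHCB1.2 and LHCB2.3 differed by 2.54, 2.51 and 2.43. The same held in chlorophyll synthesis, where the response of 13 of 14 genes differed and 11 were lower in F. robusta with 0 higher; PORB changed by -1.24 and -3.88.

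Flavonoid genes rose in both species, all 13 tested in F. robusta, with a median of 2.301 against 1.11 in F. bidentis. The response of 10 differed, 9 of them with the larger rise in F. robusta. DFR was the other one and rose by 3.72 in F. bidentis and by 1.603 in F. robusta (difference 2.16, adjusted p 0.00115). CHS did not differ (1.91 and 2.24; adjusted p 0.593). Several C4 cycle genes separated the species: AMK2 rose by 1.296 in F. bidentis and changed by -0.56 in F. robusta (difference 1.88, adjusted p 6.82e-05), ASP5 changed by 1.195 and -0.27 (1.48, adjusted p 0.000535) and NADP-MDH by 0.69 and -0.47 (1.18, adjusted p 0.00688). PPDK rose in both (0.58 and 1.23), and the difference did not pass after TMM scaling (-0.63, adjusted p 0.13) although it did as deposited (-1.07, adjusted p 0.011). The direction of the C4 cycle list within F. robusta depended on the scaling. As deposited 7 of 26 genes were higher and 2 lower there (median 0.034), and after TMM scaling 2 and 9 (median -0.419). On LL2 the deposited F. robusta values of AMK2 were 66 and 60.5 RPM against 62 to 77.5 RPM. Those of ASP5 were 136 and 127 RPM against 102.5 to 140 RPM. Among genes with the more negative response in F. bidentis were the thioesterases AT1G48320 (-2.09, adjusted p 1.18e-05) and AT5G48950 (-2.26), the oxidoreductase AT1G06690 (-1.84), the sterol methyltransferase AT5G13710 (-1.63) and AT4G05330 (-1.31), all of which rose in F. robusta.

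For the clock, none of 23 core clock genes differed after TMM scaling, and 3 did as deposited. This test compares the change averaged over ZT04 and ZT08. Opposite changes at the hours, as in CCA1 and TOC1, cancel in it at least in part. Whether the loss of the hour difference was unequal between the species was not tested. TOC1 changed by 1.65 in F. bidentis, with a species difference of 0.16 (adjusted p 0.907), and LHY differed by -0.14 (adjusted p 0.933). A p that misses the threshold does not show that the clocks responded alike.

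**Figure D5:**
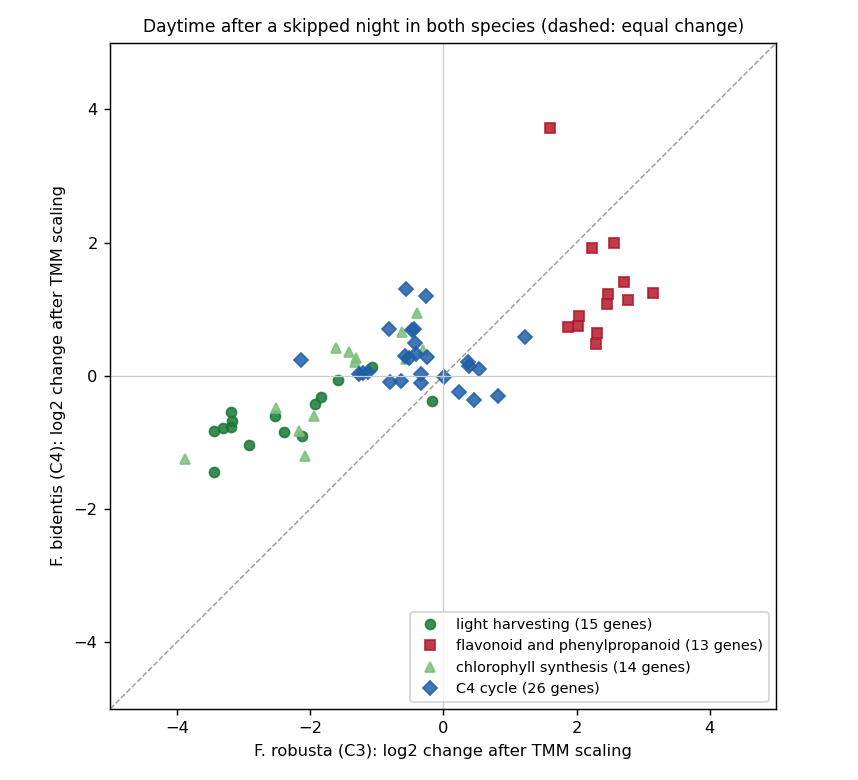
Log2 change after the skipped night in F. robusta (x axis) and F. bidentis (y axis), both after TMM scaling, for the genes of 4 lists; the dashed line marks equal change. Light-harvesting genes lie at larger decreases in F. robusta (median -2.53 against -0.68), flavonoid genes at increases in both, and DFR is the one flavonoid gene above the line.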

How the data were processed

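Leaf RNA was read from one end (100 bp, 12 libraries to a lane). The submitters' processing notes name CASAVA and TAIR10; the aligner is not given in the sources used here. Per gene, the deposited file holds 21869 Arabidopsis identifiers with the authors' mean RPM per time point, in steps of 0.5 and summing to between 999417.5 and 1000090. Another 200 columns of library values match no sample title and were left out, so depth and replicate spread are unknown here.

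On the log2(mean RPM + 1) scale, linear models were fitted with limma 3.58.1 under R 4.3.3 (empirical Bayes, trended and robust), two-sided, with Benjamini-Hochberg adjustment over all genes averaging 1 RPM or more in the fit. The model held hour and skipped night (5 residual degrees of freedom), then their product, the LL1 day against LD, or the product with species (16 means). TMM factors were computed on RPM, trimming 30% of M and 5% of A values. Alternatives were another pseudocount (0.1), other filters (none, 5 RPM, all 50 means), a 2-fold minimum, other reference days, a linear day trend, a spread shared with F. robusta and the omission of each mean. Fits were tested on simulated data. Of 66 genes changed by 1 log2 unit, 41 were recovered for the skipped night and 1 for the hour interaction (13294 genes each), 26 for LL1 against LD (13282) and 16 for the species difference (13450). Of 66 changed by 2 units, 60, 36, 57 and 56 were recovered.

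The members and the 22 gene lists (346 genes, 283 in the table, 274 tested) were chosen with earlier results of these data known. Any clock gene could be named; of other lists up to 4 members by smallest adjusted p, plus called members against the majority; beyond the lists up to 10 per direction by fold (5 by adjusted p for interactions) with a description and at least 10 RPM. Other genes named were chosen after their values were seen. Symbols are those of the Arabidopsis genes.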

Additional observations from a re-analysis of the deposited data

Results flagged for a closer look

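Among the 6 reference means, 4 of 96 genes checked had a single value far from the other 5; chance alone gives about 1 in 20. PRR7 read 148 RPM at ZT08 of LD2. SGAT read 897 RPM, APS1 705 RPM and AT2G19810 53.5 RPM at ZT04 of LD1, the mean that correlated least with the same hour of the other days. The response to the skipped night differed between ZT04 and ZT08 for 591 genes and between the species for 5086 genes as deposited, both by tests of the difference itself.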

How the results depend on the processing

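For the skipped night, the count of 842 genes was 790 with TMM scaling and moved beyond 1.5 times with a 2-fold minimum (245), LD1 and LD2 as reference (169), LL1 as reference (0) and a linear trend over days (33). Omitting single means gave 395 to 1356. For the hour difference, counts ran from 220 (without LL1 ZT08) to 1985 (without LD1 ZT04) around 591; every omission that could be fitted moved it by over 1.5 times, and omitting an LL2 mean leaves the interaction without an estimate. For the species difference, 5086 became 2333 with TMM and 2003 with a 2-fold minimum, and 2151 (without F. bidentis LL2 ZT08) to 5239 with single omissions; it was 2965 without F. robusta LL2 ZT08. The LL1 comparison gave 0 throughout. Directions over both hours reversed for genes that did not pass: LHY (0.20) and CCA1 (0.032) with the day trend, and with omissions LHY (-2.10 to 1.27), CCA1 (-2.23 to 1.04), JMJD5 (-1.90 to 2.81), TOC1 (-0.19 to 3.52), FKF1 (-3.05 to 0.89) and PRR5 (-1.76 to 0.29). The hour difference reversed for PRR7 (0.04) and PRR3 (0.09) with TMM, and with omissions PRR7 ran from -0.219 to 0.003 and PRR3 from -0.204 to 0.081. The cause was not tested. The untrended, non-robust fit of the LL1, hour and species comparisons was added after seeing the data.

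No paired analysis was possible because the deposited means carry no replicate number, and the fit with a replicate block was not run. Depth is unknown, so small changes of genes near 1 RPM cannot be resolved.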

Other observations

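Families picked by words in the gene descriptions, after the data were seen, add to the account of F. bidentis and carry no test of their own. Shares over all genes were 3.75% higher and 2.59% lower. Of 25 tested genes described as glutathione S-transferases, enzymes that conjugate reactive compounds, 7 were higher (28%) and 0 lower. AT2G29420 (tau class 7) rose from 43 to 75 RPM to 122 and 115 RPM. AT3G03190 (class F11) read 4.5 to 11 RPM before and 14 and 21 RPM on LL2. The family count was also 7 after TMM scaling. Of 94 genes described by expansin, xyloglucan endotransglucosylase or pectin, which act on the cell wall or inhibit such enzymes, 19 were higher (20.2%) and 3 lower (3.19%). Expansin A15 (AT2G03090) rose from 39.5 to 47.5 RPM to 103.5 and 106.5 RPM, a change of 1.29 (SE 0.11, adjusted p 0.000805 in limma), also with the day trend (1.395, adjusted p 0.0353).

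Genes described by a ribosomal protein had mostly small positive values, with 206 of 256 above 0, a median of 0.19 (0.16 after TMM scaling), 15 higher (5.86%) and 1 lower. After TMM scaling 5 of the 256 were higher, a smaller share than the 2.89% of all genes. The excess of higher calls as deposited thus depended on the scaling. The higher genes with the smallest adjusted p were AT1G05190 (L6, 214 to 314.5 RPM, then 436.5 and 550 RPM) and AT1G75350 (L31, 106 to 159 RPM, then 237.5 and 238.5 RPM). Next came AT2G38140 (96.5 to 122 RPM, then 166 and 182 RPM) and AT1G32990 (142.5 to 194 RPM, then 256.5 and 317 RPM), both described as plastid proteins. The exception, AT5G24490, fell as described above. Photosystem subunits other than antenna proteins had 3 higher and 4 lower of 26 (11.5% and 15.4%). Their summed level was 50781 to 59463.5 RPM before and 40854 and 40610 RPM on LL2, below every reference mean. The lower genes were abundant, such as photosystem I subunit F (AT1G31330, 6504 to 8451.5 RPM, then 4282 and 4191 RPM). The higher ones had fewer reads, the most being those of PSB28 (AT4G28660, 82 to 108.5 RPM, then 147 and 169.5 RPM). Pentatricopeptide repeat proteins, which process organelle RNA, had 1 higher and 4 lower of 144 (0.694% and 2.78%).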
